A study of Sus scrofa domesticus with 2 samples.

Results

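Vascular tone is set in part by signals that the endothelium makes or receives, and 10 genes of these signals were followed here in cultured pig endothelial cells, among 22804 features counted per cell. They were chosen by name: the peptide genes ADM and EDN1, the enzyme genes NOS3, ECE1, ACE, PTGS1, PTGS2 and PTGIS, and CALCRL and RAMP2, which together make an adrenomedullin receptor. Endothelin, cut from its precursor by ECE1, constricts the smooth muscle of the vessel wall, while nitric oxide from NOS3 and prostacyclin, made in steps by a cyclooxygenase (PTGS1 or PTGS2) and PTGIS, relax it. Adrenomedullin, the peptide of ADM, dilates vessels and acts back on endothelial cells through CALCRL, which needs a partner such as RAMP2 to reach the cell surface. ACE, best known from lung capillaries, makes angiotensin II and breaks down bradykinin.

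The study is an atlas of pig tissues, of which the cultured endothelial cells of lung and aorta were used. Primary cells were released with collagenase from a perfused lung lobe or from the aorta near the lung and grown in the same serum-containing medium, and RNA was counted in single cells with droplets (10x 3′ v3). Sex, age, breed and passage are not in the labels used. The study's methods describe the pigs behind its single-cell tissues as slaughterhouse animals of mixed Landrace, Large White and Duroc breeding and give their age, and its discussion calls the animals adult. Whether the cultures came from such animals is not stated in the methods. There was 1 library per tissue, so that tissue, animal, culture and library cannot be told apart and no test between tissues was possible. The counts are UMIs, tags that mark single captured RNA molecules. The lung library held 5946 cells with 57213236 UMIs (median 9326 per cell), and the aorta library 1185 cells with 46080859 UMIs (median 45594). Both libraries shared 5 cell barcodes.

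Cells with more than 200 and under 5000 detected genes and under 30% mitochondrial UMIs were used, 5683 from the lung and 246 from the aorta. Most aorta cells passed the upper limit, so the 709 aorta cells with 5000 or more genes were kept as a separate set, called deep aorta cells. The study's methods describe such a limit as a filter on doublets. Whether the deep cells are single cells was not tested. A cell was called endothelial when its PECAM1 UMIs outnumbered its COL1A1 and COL1A2 UMIs together, and collagen-high when the collagen UMIs outnumbered PECAM1 and made up at least 0.2% of its UMIs. The lung held 5286 endothelial cells (median 9418 UMIs), 342 collagen-high cells (median 10673) and 55 cells of neither class (median 2496). In the aorta these were 123 endothelial cells (median 7864), 23 collagen-high cells (median 8488) and 100 of neither class (median 3156). The deep aorta cells split into 581 endothelial cells (median 57099) and 128 collagen-high cells (median 64512). The minimum collagen share left out 7 lung cells and 34 aorta cells, the highest of which had 0.142% and 0.152% collagen UMIs. The lowest cells kept had 0.211% and 0.302%.

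Levels are UMIs of a gene per 1000000 UMIs (CPM) summed over the cells of a class, with exact 95% Poisson intervals. Folds have exact conditional binomial intervals and shares of cells Clopper-Pearson intervals. All of these cover counting error only, not differences between animals or cultures. The intervals of levels and folds also treat UMIs as independent, so they leave out the spread between cells. They are too narrow for genes whose UMIs vary more between cells than a Poisson count, such as PTGS2 in aorta endothelial cells. A class with 0 UMIs was set to a floor of 3 counts, 0.0576 CPM in lung endothelial cells, 0.779 in lung collagen-high cells, 2.42 and 14.7 in the aorta classes, and 0.0866 and 0.344 in the deep ones. Folds against such a class are bounds set at this floor, and are given with the exact 95% lower limit from the UMIs, which lies below them.

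The endothelial label was checked on 16 endothelial markers, PECAM1 included, that were all named in the files. All 16 had UMIs in lung endothelial cells, with a summed level of 3340 CPM led by PECAM1 at 1594 CPM, against 465 CPM in lung collagen-high cells. PECAM1 defines the class, so the other 15 markers bear on the label: they summed to 1746 CPM in lung endothelial and 303 CPM in lung collagen-high cells, 1770 and 250 CPM in the aorta, and 2017 and 182 CPM in deep aorta cells. CDH5, the cadherin of endothelial junctions, stood at 156 CPM in lung, 232 CPM in aorta and 193 CPM in deep aorta endothelial cells. A pair of classic markers was low: VWF was at 0.403 CPM in lung endothelial cells and 0 in aorta endothelial cells, and KDR was at 1.77 and 0.807 CPM. FLT1 was higher in lung collagen-high cells (47.2 CPM) than in lung endothelial cells (21.3 CPM). Apart from the collagens that define the class, 6 fibroblast markers summed to 516 CPM in lung collagen-high and 75.0 CPM in lung endothelial cells, 255 and 252 CPM in the aorta, and 468 and 276 CPM in deep aorta cells, led in collagen-high cells by COL3A1. FBLN1 was higher in endothelial cells, and DCN, LUM and PDGFRA were at 2.86 CPM or less in lung collagen-high cells and at 0 in aorta ones, while aorta endothelial cells had 21.8 CPM of DCN and of LUM. Deep collagen-high cells had 12.4 CPM of LUM, 4.92 of DCN and 4.24 of PDGFRA, against 15.5, 18.4 and 7.91 CPM in deep endothelial cells. DPT, like COL3A1, was higher in collagen-high cells, at 2.34 CPM in lung, 29.4 in aorta and 35.6 in deep ones. Endothelial cells had 0, 0 and 0.0866 CPM of DPT. As these markers did not all lie on the same side, collagen-high is used as a description by the rule and not as a cell type. Smooth muscle markers, led by TAGLN, summed to 3539 CPM in lung collagen-high cells and 989 CPM in lung endothelial cells, and pericyte markers, led by CSPG4, to 322 CPM in the former. Macrophage markers summed to 7.89 CPM in lung endothelial cells.

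The comparison of endothelial with collagen-high cells asks which mediator genes belong to the endothelial cells of each culture. A gene was tested when it had at least 10 CPM in 1 of the classes and 20 UMIs, and called when the levels were 2-fold or more apart. In the lung 8 of the 9 members tested were higher in endothelial cells, a call that 10.1% of all 7978 features tested received. In the aorta 7 of 9 were higher, against 16.7% of all features tested, but the intervals of ADM and PTGS1, with 2 and 1 UMIs in collagen-high cells, reached below 1, and both calls were lost when no UMI of the other class was allowed, which left 5. In deep aorta cells 8 of 9 were higher, against 13.2%. ACE was the member not tested in each. The 2 cell classes were defined by other genes, but the members were picked as endothelial genes, so these counts are a description.

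**Figure D1:**
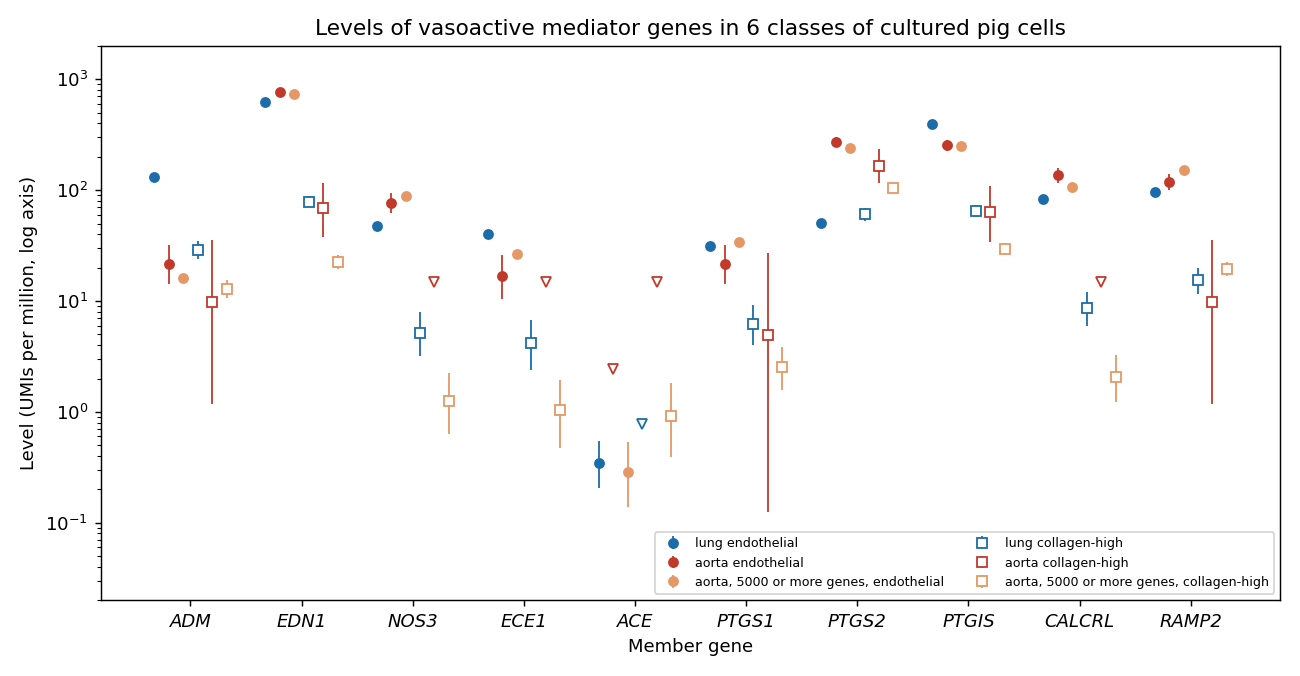
Level of each gene (CPM, log axis) in endothelial cells (filled circles) and collagen-high cells (open squares) of lung (blue), aorta cells under 5000 genes (red) and deep aorta cells (orange), with exact 95% Poisson intervals. Open triangles mark classes with 0 UMIs, drawn at the floor of 3 counts, and EDN1, PTGIS and RAMP2 lie higher in endothelial than in collagen-high cells in all 3 sets.

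The peptide genes differed from each other in how they were spread over the classes. EDN1, the precursor of endothelin (ENSSSCG00000035598, chr7:8752018-8758354, plus strand), was measured at 624 CPM (618 to 631) in lung endothelial cells, 766 CPM (718 to 816) in aorta endothelial cells and 740 CPM (731 to 749) in deep ones. Its level in collagen-high cells was 78.9 CPM in the lung, 68.7 CPM in the aorta and 22.4 CPM in deep cells. All endothelial classes stood above all collagen-high classes, the pair of aorta endothelial classes did not differ beyond counting error, and neither did lung and aorta collagen-high cells. Endothelial cells had 7.91-fold (7.07 to 8.89) more EDN1 in the lung, 11.2-fold (6.61 to 20.5) more in the aorta and 33.0-fold (28.7 to 38.2) more in deep cells.

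ADM, the precursor of adrenomedullin (ENSSSCG00000013408, chr2:49229223-49231521, minus strand), was at 131 CPM (128 to 134) in lung endothelial cells. It was far lower in the aorta, with 21.8 CPM (14.3 to 31.7) in endothelial cells and 16.0 CPM (14.7 to 17.4) in deep ones. Collagen-high cells had 28.8 CPM in the lung, 9.81 CPM (2 UMIs) in the aorta and 12.8 CPM in deep cells. Lung endothelial cells thus stood alone at the top of the order. Lung collagen-high cells and aorta endothelial cells came next and did not differ beyond counting error, and neither did the pair of aorta endothelial classes. The endothelial excess was 4.55-fold (3.77 to 5.53) in the lung, 2.22-fold (0.558 to 19.3) in the aorta and 1.25-fold (1.02 to 1.54) in deep cells, where ADM was the tested gene not called.

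Among the enzymes, NOS3, which makes nitric oxide from arginine (ENSSSCG00000016450, chr18:6209218-6228912, minus strand), was at 48.0 CPM (46.1 to 49.9) in lung, 76.6 CPM (62.0 to 93.7) in aorta and 89.0 CPM (85.9 to 92.2) in deep aorta endothelial cells. The aorta levels did not differ beyond counting error, and both were above the lung level. Collagen-high cells had 5.19 CPM in the lung, none of 203893 UMIs in the aorta and 1.26 CPM in deep cells. The excess in endothelial cells was 9.24-fold (5.97 to 15.2) in the lung and 70.7-fold (39.4 to 142) in deep cells, the widest fold of any tested member in that set. In the aorta the excess was 5.21-fold at the floor, with an exact lower limit of 4.15-fold.

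ECE1, the protease that releases active endothelin (ENSSSCG00000003513, chr6:79408322-79465827, minus strand), was at 40.3 CPM (38.6 to 42.0) in lung endothelial cells, 16.9 CPM (10.5 to 25.9) in aorta endothelial cells and 26.8 CPM (25.1 to 28.6) in deep ones. The order ran from lung over deep aorta to the other aorta cells, whose interval met that of the deep ones. In collagen-high cells it was at 4.15 CPM in the lung, at 0 in the aorta and at 1.03 CPM in deep cells. The excess was 9.70-fold (5.96 to 17.0) in the lung and 26.0-fold (13.6 to 57.1) in deep cells. In the aorta, with 21 against 0 UMIs, no difference was detectable at this depth. The fold there was 1.15 at the floor, with an exact lower limit of 0.857-fold.

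The cyclooxygenases, which turn arachidonic acid into the common precursor of prostaglandins, behaved unlike each other. PTGS1, the constitutive form (ENSSSCG00000005533, chr1:262456106-262482159, plus strand), was at 31.1 CPM (29.6 to 32.7) in lung, 21.8 CPM (14.3 to 31.7) in aorta and 34 CPM (32.1 to 36) in deep aorta endothelial cells. Its collagen-high levels were 6.23 CPM, 4.91 CPM (1 UMI) and 2.52 CPM in the same order. Endothelial cells had 5.00-fold (3.35 to 7.83) more PTGS1 in the lung, 4.44-fold (0.732 to 182) more in the aorta and 13.5-fold (8.87 to 21.6) more in deep cells.

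PTGS2, the inducible form (ENSSSCG00000015579, chr9:127850164-127858866, minus strand), was the member with the lowest endothelial over collagen-high fold in the lung. There it was at 50.9 CPM (49.0 to 52.9) in endothelial cells and 60.8 CPM (53.2 to 69.0) in collagen-high cells, so that the endothelial level was 0.838 times (0.733 to 0.962) the collagen-high level. In the aorta it was at 272 CPM (244 to 302) in endothelial and 167 CPM (116 to 233) in collagen-high cells, 1.63-fold (1.14 to 2.39), which became 2.94-fold with no minimum collagen share. Deep aorta cells had 239 CPM (234 to 244) and 104 CPM (97.0 to 111), a fold of 2.31 (2.15 to 2.47) that passed the 2-fold line. Both aorta endothelial classes stood above the other classes, and the lung classes came last.

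PTGIS, which turns that precursor into prostacyclin (ENSSSCG00000007463, chr17:51153151-51200515, minus strand), was at 399 CPM (394 to 405) in lung, 254 CPM (227 to 284) in aorta and 248 CPM (243 to 254) in deep aorta endothelial cells, with the aorta classes alike within counting error. Collagen-high cells had 65.2, 63.8 and 29.4 CPM. The excess was 6.13-fold (5.41 to 6.97), 3.99-fold (2.30 to 7.57) and 8.43-fold (7.45 to 9.59). The aorta fold ran from 2.95 to 9.35 under the alternatives.

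ACE, the angiotensin-converting enzyme (ENSSSCG00000017296, chr12:15394487-15414609, minus strand), was close to absent from these cultures. It had 18 UMIs in lung endothelial cells, 0.345 CPM (0.205 to 0.546), and none in lung collagen-high cells or in any of the 2 aorta classes under 5000 genes. Deep aorta endothelial cells had 10 UMIs (0.288 CPM) and deep collagen-high cells 8 (0.916 CPM), so the gene was not tested in any comparison.

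The receptor genes were higher in endothelial than in collagen-high cells in every set. CALCRL, the receptor protein of adrenomedullin (ENSSSCG00000016031, chr15:92233264-92332459, minus strand), was at 83.8 CPM (81.3 to 86.3) in lung, 136 CPM (117 to 158) in aorta and 107 CPM (104 to 110) in deep aorta endothelial cells, an order with no overlap of the intervals. Collagen-high cells had 8.57 CPM in the lung, 0 in the aorta and 2.06 CPM in deep cells. The excess was 9.78-fold (6.95 to 14.2) in the lung and 51.9-fold (32.8 to 87.7) in deep cells. In the aorta the excess was 9.27-fold at the floor, with an exact lower limit of 7.45-fold. RAMP2, its partner (ENSSSCG00000017389, chr12:20092204-20094426, minus strand), was at 97.1 CPM (94.5 to 99.8), 118 CPM (99.5 to 138) and 151 CPM (147 to 155) in the 3 endothelial classes, lowest in the lung and highest in deep aorta cells. Its collagen-high levels were 15.3 CPM, 9.81 CPM (2 UMIs) and 19.5 CPM, giving folds of 6.34 (4.91 to 8.34), 12 (3.27 to 100) and 7.74 (6.64 to 9.07). RAMP2 was therefore higher in endothelial than in collagen-high cells of all sets but, in deep cells, by less than CALCRL. Lung cells of neither class had more RAMP2 than lung endothelial cells, 168 CPM (112 to 241).

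Levels in collagen-high cells can include free RNA or mixed droplets, so these cells were split by whether they held a PECAM1 UMI. Cells without one were also shallower, with medians of 10082 against 12610 UMIs in the lung and 57946 against 74072 in deep cells. The part of depth in this split was not tested. In the 220 lung collagen-high cells without one, CALCRL fell to 0.545% of its endothelial level (1 UMI), NOS3 to 3.81%, EDN1 to 5.49%, ECE1 to 5.67%, PTGIS to 8.01%, PTGS1 to 8.80% and RAMP2 to 9.88%. The 12 other endothelial markers had a median of 4.04% there, and CDH5 was at 2.63%. ADM kept 14.0% of its endothelial level and PTGS2 127%, as FLT1 did with 260%. The median of 9 members was 8.01% in these cells. In the 122 lung cells with a PECAM1 UMI the members had a median of 23.5% and the markers one of 26.6%. Of the deep collagen-high cells, 60 had no PECAM1 UMI. In them ADM stood at 88.1% and PTGS2 at 37.7% of the endothelial level, RAMP2 at 13.5%, and PTGIS was at 27.6 CPM against 248 CPM in endothelial cells, whereas EDN1, NOS3, ECE1 and CALCRL were at 1.83%, 0.609%, 1.01% and 1.77%, near the 0.981% median of 13 markers. The member median was 3.98% there, and in the 68 deep cells with a PECAM1 UMI it was 9.92% against 4.02% for the markers. Single markers also lay above the medians of cells without a PECAM1 UMI. ERG was at 17.2% and CLEC14A at 27.1% in the lung cells, and ERG at 29.4%, CLEC14A at 24.6% and FLT1 at 109% in the deep ones. The part of free RNA or mixed droplets in these levels was not tested.

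**Figure D2:**
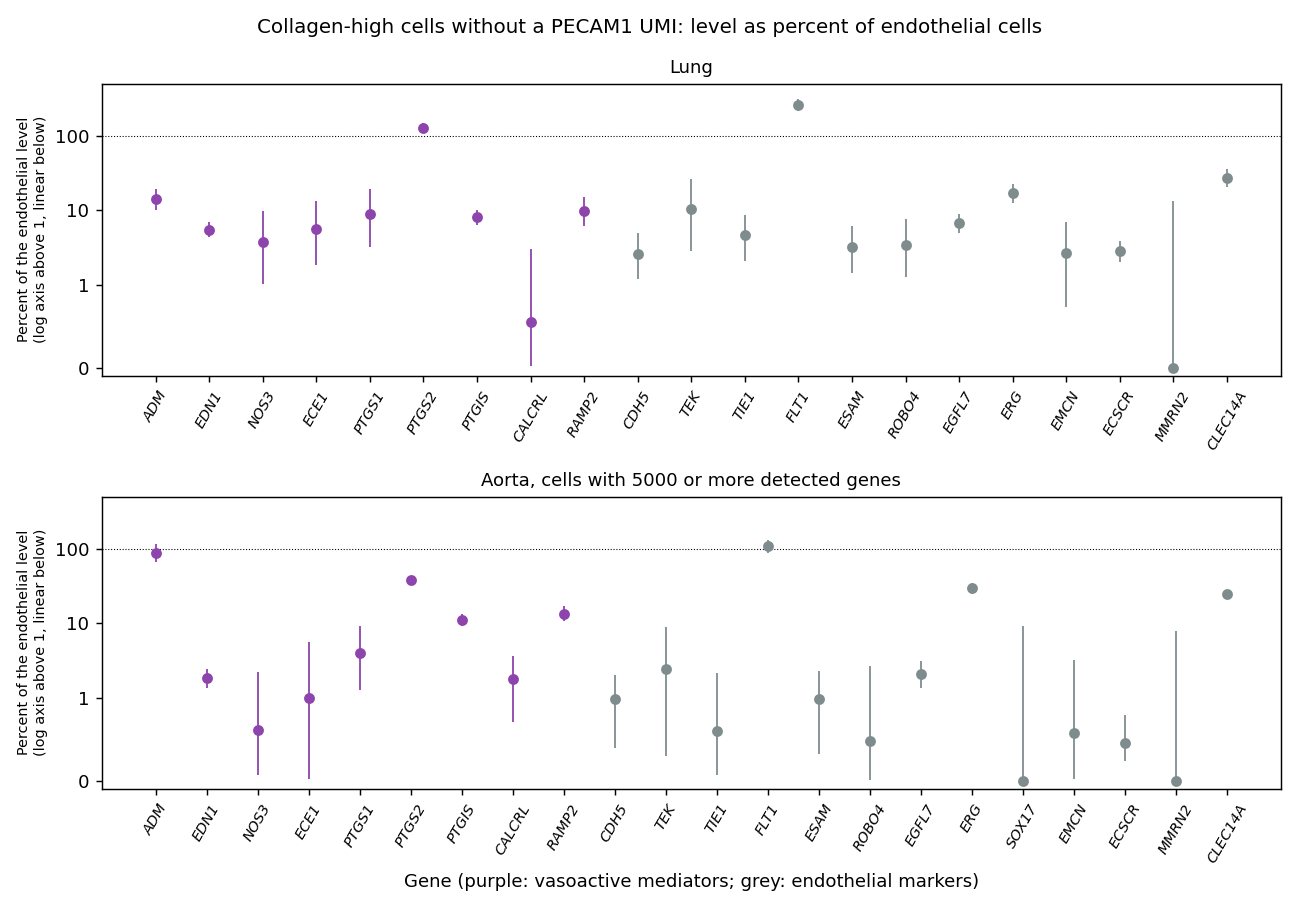
Level of each gene in collagen-high cells without a PECAM1 UMI, as a percent of its level in endothelial cells of the same set, for members (purple) and endothelial markers (grey). Bars are the 95% Poisson interval of the collagen-high level divided by the endothelial level, and the dotted line is 100%, which PTGS2 passed in the lung.

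The comparison of lung with aorta endothelial cells asks which members differed between the cultures of the tissues. In cells under 5000 genes 3 of 9 tested members were 2-fold or more apart, a call that 12.1% of all features received. ADM was 6.01-fold (4.13 to 9.13) and ECE1 2.38-fold (1.55 to 3.85) higher in the lung, and PTGS2 was 5.34-fold (4.76 to 5.99) higher in the aorta. Set against deep aorta endothelial cells, 2 of 9 were apart, against 4.73% of features. ADM was 8.19-fold (7.51 to 8.95) higher in the lung and PTGS2 4.70-fold (4.50 to 4.91) higher in the deep aorta cells. PTGIS was 1.57-fold and 1.61-fold higher in the lung, and NOS3 1.86-fold (1.76 to 1.96) higher in deep aorta cells. EDN1, PTGS1, CALCRL and RAMP2 were less than 2-fold apart in either comparison. Deep and other aorta endothelial cells did not differ 2-fold in any of 9 members tested, and 3.35% of all features did. Median depth was 9418 UMIs in lung and 57099 in deep aorta endothelial cells, and its part in these differences was not tested. Markers of other cell types differed as well. Of 6 fibroblast markers tested 4 were higher in aorta than in lung endothelial cells and none lower (summed over 8 markers 332 against 102 CPM, led by FBLN1, with DPT at 0 in both). COL3A1 was at 78.2 against 1.31 CPM and DCN at 21.8 against 0.0192 CPM. Of 3 smooth muscle markers tested TAGLN was higher in the lung (958 against 244 CPM) and ACTA2 in the aorta (48.4 against 4.68 CPM), but deep aorta endothelial cells had 2.80 CPM of ACTA2, below the lung. TAGLN was at 240 CPM in the deep cells, COL3A1 at 83.8 CPM and DCN at 18.4 CPM, on the same side of the lung as in the other aorta cells. All 6 smooth muscle markers summed to 989 CPM in lung, 308 CPM in aorta and 263 CPM in deep aorta endothelial cells, led by TAGLN, with DES at 0 in both aorta classes. Their part in the members' differences was not tested.

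**Figure D3:**
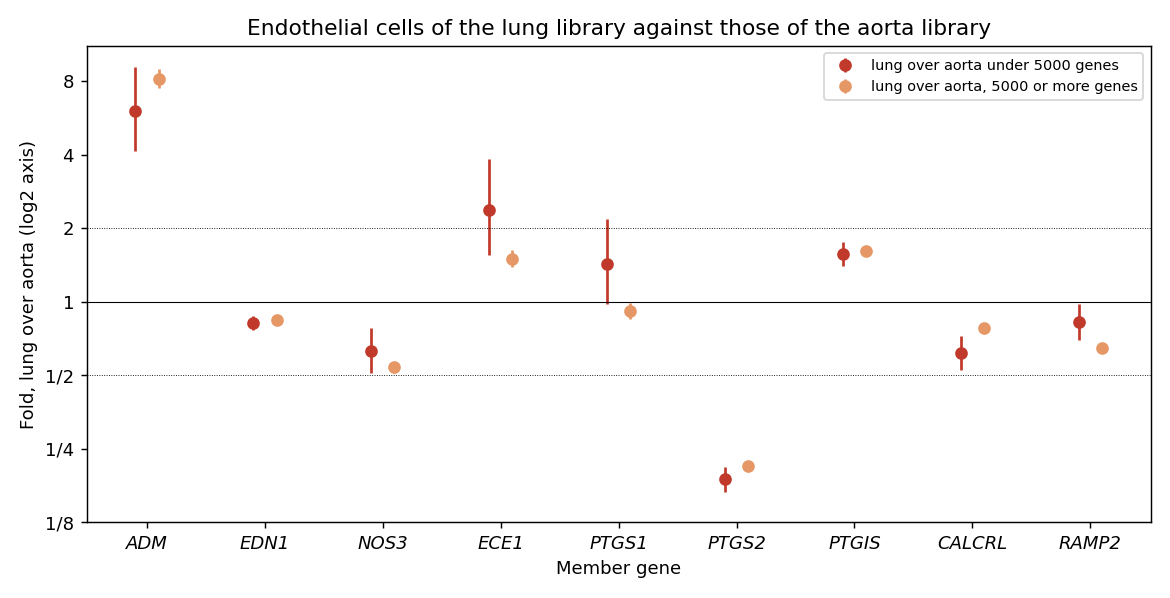
Fold between lung and aorta endothelial cells (log axis, lung over aorta) for 9 members, against aorta cells under 5000 genes and against deep aorta cells, with exact 95% intervals and dotted lines at 2-fold. ADM lies far to the lung side and PTGS2 far to the aorta side in both.

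The share of cells with at least 1 UMI of a gene was compared after thinning each cell to 5000 UMIs, which kept 4934 of the 5286 lung endothelial cells and 315 of the 342 lung collagen-high cells and left out 352 and 27 with fewer UMIs. The shares of lung endothelial cells with a UMI were 92.3% for EDN1, 82.1% for PTGIS, 38.0% for ADM, 37.7% for RAMP2, 33.1% for CALCRL, 21.0% for NOS3, 18.8% for PTGS2, 18.2% for ECE1 and 14.3% for PTGS1. In collagen-high cells they were 20.6%, 19.4%, 8.57%, 7.94%, 3.49%, 2.54%, 20.6%, 1.27% and 2.54% in the same order. PTGS2 was the gene of these 9 whose share was no larger in lung endothelial than in collagen-high cells, so the share did not set the classes apart. Without thinning, 96.5% of lung endothelial cells had an EDN1 UMI and 53.8% one of ADM, against 33.3% and 20.5% of lung collagen-high cells, at medians of 9418 and 10673 UMIs. Deep aorta endothelial cells, all of them over the thinning depth, had 94.3% for EDN1, 64.2% for PTGIS, 56.6% for PTGS2, 50.3% for RAMP2, 39.1% for NOS3, 39.1% for CALCRL, 14.6% for PTGS1, 13.3% for ECE1 and 6.37% for ADM. The same shares in deep collagen-high cells were 9.38%, 10.9%, 34.4%, 8.59%, 0, 0.781%, 0.781%, 0 and 5.47%, where 0 of 128 cells has a Clopper-Pearson upper limit of 2.84% of cells with a UMI (3 counts would be 2.34%). The ADM share of deep endothelial cells was thus at the level of the collagen-high cells and did not set the classes apart. Without thinning, at medians of 57099 and 64512 UMIs, 97.1% of deep endothelial and 3.12% of deep collagen-high cells had a NOS3 UMI, and 40.3% and 41.4% one of ADM.

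Cell-to-cell spread, given as the variance over the mean of thinned UMIs (a Poisson count has 1), was 1.84 for ADM and 1.39 for PTGS2 in lung endothelial cells and 2.28 and 2.94 in deep aorta ones. It was 1.39 and 1.42 for EDN1, and 1.00 and 0.912 for NOS3, in the same order. ADM had the highest value of these 4 genes in the lung and PTGS2 in deep aorta cells, and NOS3 was close to a plain count. The measure depends on the mean, which was 0.651 for ADM and 0.247 for PTGS2 in the lung. In deep aorta cells the means were 0.0861 and 1.28, so the genes are not ranked by unevenness. The share of cells with UMIs of both genes of a shared step lay near the product of their shares: CALCRL and RAMP2 were both seen in 12.5% of thinned lung endothelial cells (product of the shares 12.5%) and 20.3% of deep aorta ones (19.6%). EDN1 with ECE1 gave 17.2% (16.8%) in the lung and 12.9% (12.5%) in deep cells, and PTGS2 with PTGIS 15.4% (15.4%) and 35.6% (36.4%). EDN1 was seen in 92.3% and 94.3% of these cells, and PTGIS in 82.1% of the lung ones. Where a gene is in nearly all cells, the joint share has little room above the product, so nothing is read from those pairs.

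Endothelial cells were ranked by the summed CPM of 7 gene lists that track cell state (S phase, G2M phase, interferon response, immediate early genes, flow response, hypoxia and inflammatory genes), and the members were compared between the top and the bottom 25% of cells. The ranks are ranges, not cell types, as many cells lay near the upper border. For the immediate early list 772 of the lung cells were within 10% of it, and over the lists from 221 (interferon) to 904 (inflammatory). Cells near the lower border were not counted. Median depth was 9430 UMIs in the top and 8910 in the bottom set of the immediate early list in the lung. It was 11108 and 9429 for G2M phase and 10632 and 8734 for S phase there. In deep aorta cells it was 64854 and 55198 for G2M phase and 63058 and 55557 for S phase. The part of depth in these comparisons was not tested. With a line of 1.5-fold, 4 of 63 gene and list pairs were apart in the lung, against 5.68% of all such pairs of tested genes. In deep aorta endothelial cells 12 of 63 were, against 14%. These counts lie near the background, so they say nothing about the members as a set.

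The pairs past 1.5-fold are given as values beside the share of all features apart for the same list. PTGS2 was higher with the immediate early genes, from 33.1 to 66.2 CPM in lung endothelial cells (2-fold, 1.77 to 2.26) and from 160 to 325 CPM in deep aorta ones (2.03-fold, 1.91 to 2.17), where 1.04% and 3.93% of features were apart. It was also higher with the inflammatory list, 1.5-fold (1.34 to 1.68) in the lung and 1.82-fold (1.71 to 1.94) in deep aorta cells (2.06% and 7.79% of features). In deep aorta cells PTGS2 was higher with the interferon list (1.74-fold, 11.9% of features) and the hypoxia list (1.68-fold, 7.44%), and 1.79-fold lower with S phase (31.7%). ADM was 1.5-fold (1.40 to 1.61) higher with the hypoxia list in the lung, from 106 to 160 CPM, and level in deep aorta cells at 15.6 CPM in both sets (4.44% and 7.44% of features). With the top and bottom 10% of cells it was 1.77-fold (1.15 to 2.75) higher there. In deep aorta cells ADM was higher with S phase (1.83-fold, 1.45 to 2.32, 31.7% of features) and the immediate early list (1.85-fold, 1.43 to 2.41, 3.93%). The S phase pair lies in a broad change. ECE1 was higher with the inflammatory list there (1.53-fold, 7.79%). With the top and bottom 10% of cells, ADM was 1.46-fold higher with S phase, under the line. PTGS1 was lower in cells with high G2M counts, 1.69-fold (1.47 to 1.95) in the lung and 1.87-fold (1.58 to 2.22) in deep aorta cells, where 14.9% and 31.4% of all features were apart, so these pairs lie in a broad change. With S phase PTGS1 was 1.87-fold lower in deep aorta cells (31.7% of features). CALCRL was 1.51-fold (1.37 to 1.66) higher with the flow list and 1.63-fold (1.48 to 1.79) lower with the interferon list in deep aorta cells (2.77% and 11.9% of features), and it did not differ beyond counting error for either in the lung. EDN1, NOS3, PTGIS and RAMP2 stayed under 1.5-fold for all 7 lists in both sets, except that RAMP2 was 1.62-fold (1.44 to 1.82) lower with G2M phase in deep aorta cells when the top and bottom 10% were used. That a tissue differed from the other for any of these pairs was not tested.

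**Figure D4:**
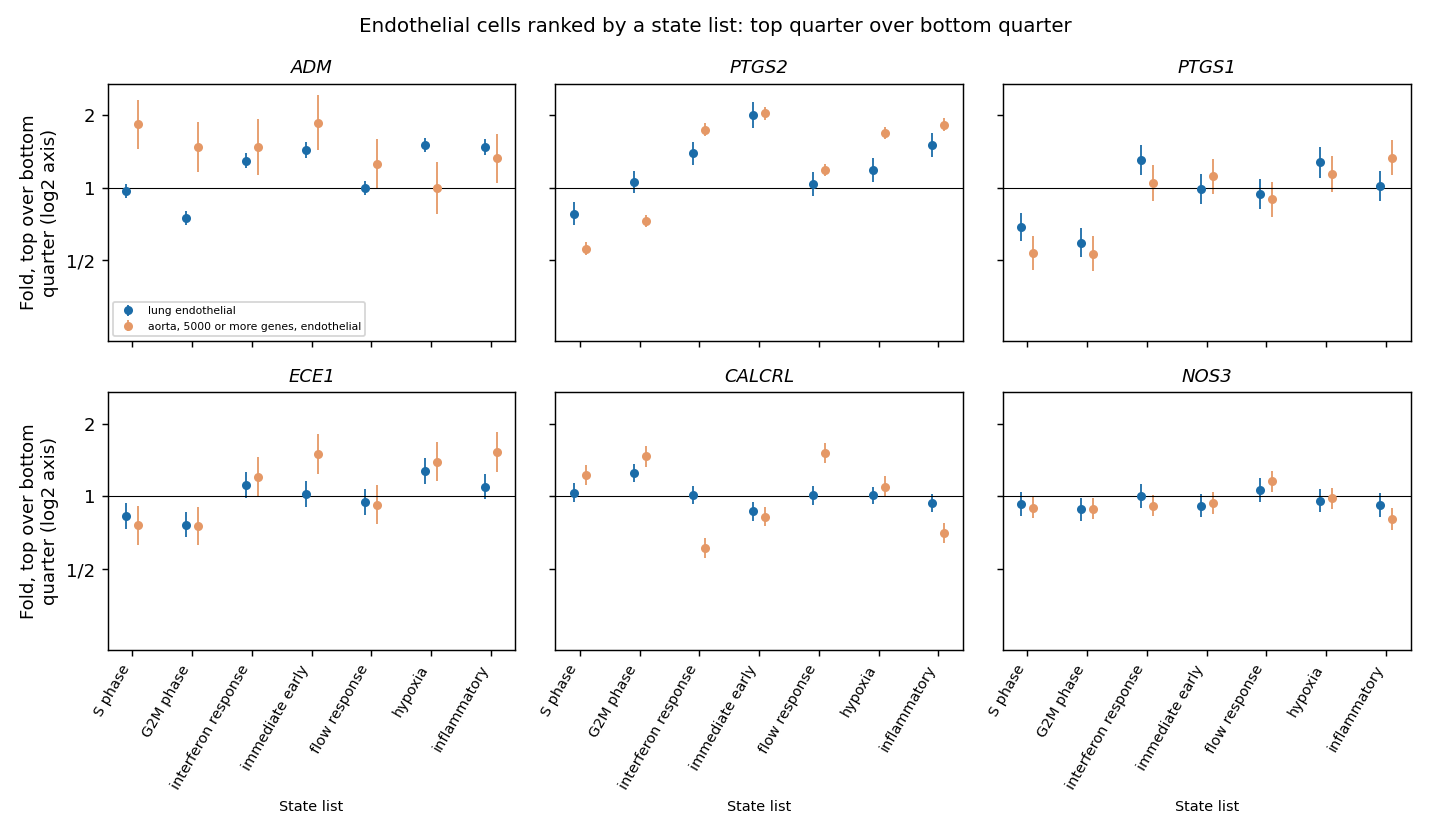
Fold of 6 members between the top and bottom 25% of endothelial cells ranked by each of 7 state lists, for lung and deep aorta cells, with exact 95% intervals. PTGS2 is about 2-fold higher with the immediate early list in both.

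Around the members, 78 of 86 listed genes of the same pathways were named in the files, and 34 of them could be tested between lung endothelial and collagen-high cells. Of these 8 were higher in endothelial cells (ASS1, ASL, ARG2, ACKR3, NPR1, NPR3, ADORA2A and S1PR1) and 7 lower (MME, PRKG1, PDE5A, BDKRB2, PTGES, PTGER2 and ADORA2B), against 10.1% and 7.16% of all features. In the aorta 9 of 27 were higher and 1, PTGES, was lower (16.7% and 9.72% of all features), and in deep aorta cells 14 of 36 were higher and 6 lower (13.2% and 7.81%). PTGES, which makes prostaglandin E from the precursor that PTGIS also uses, was at 72.5 CPM in lung endothelial and 324 CPM in lung collagen-high cells, the opposite side from PTGIS. In deep aorta cells it was at 62.4 and 386 CPM. MME, a protease that degrades vasoactive peptides, had 3 UMIs in lung endothelial cells and was at 21.0 CPM in lung collagen-high cells.

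Receptors for endothelin and prostacyclin had low levels in the endothelial classes, unlike CALCRL and RAMP2. EDNRB, the endothelin receptor of endothelial cells, was at 0.998 CPM in lung endothelial cells and 0.173 CPM in deep aorta ones, and EDNRA had no UMI in any of the 3 endothelial classes. PTGIR, the prostacyclin receptor, was at 1.44 CPM in lung and 1.41 CPM in deep aorta endothelial cells. For adrenomedullin, RAMP3, the other partner of CALCRL in binding it, was at 8.79 CPM in lung endothelial, 1.04 CPM in lung collagen-high, 10.5 CPM in deep aorta endothelial and 0.344 CPM in deep collagen-high cells, and RAMP1 was at 0.211 CPM in lung endothelial cells. ACKR3, a scavenging receptor of chemokines and adrenomedullin, was at 30.2 CPM in lung endothelial and 8.31 CPM in lung collagen-high cells. GUCY1B1, a subunit of the nitric oxide sensor, was at 108 CPM in lung endothelial cells and 98.9 CPM in lung collagen-high cells.

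Between lung and aorta endothelial cells 31 of the listed genes were tested, and NOSIP and PDE5A were higher in the lung while ASS1, PLA2G4A, SLCO2A1, PTGER2, PAM and NPR3 were lower. Of all features 4.89% were higher and 7.25% lower. PAM, which amidates adrenomedullin, was at 21.1 CPM in lung and 102 CPM in aorta endothelial cells, the opposite direction to ADM. ASS1, which with ASL remakes arginine for NOS3, was at 11.8 and 39.5 CPM, and NPR3, the clearance receptor of natriuretic peptides, at 77.4 and 314 CPM. PLA2G4A, which frees arachidonic acid for the cyclooxygenases, was at 33.2 and 71.0 CPM, the same direction as PTGS2. Against deep aorta endothelial cells 1 of 34 was higher in the lung and 8 were lower, against 1.29% and 3.43% of all features. Of 9 regulators known for members, all tested, 4 were higher and 0 lower in lung endothelial than collagen-high cells, against 10.1% and 7.16% of all features. In lung against deep aorta endothelial cells 0 were higher and 1 lower, against 1.29% and 3.43%. HIF1A was at 494 CPM in lung endothelial and 194 CPM in lung collagen-high cells, and KLF2, a flow-induced factor, at 16.9 CPM in lung and 34.2 CPM in deep aorta endothelial cells.

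Likeness was measured as Pearson's r of log2(CPM+10) over 34 sets of cells (the classes and the state sets of both libraries, which share libraries and cells), among 7240 genes. It is a description and no shared function is read from it. EDN1 was most like CDH5 (r = 0.992), FZD4 and TXNDC5, and NOS3 was most like FBLN1 (0.990), CD34 and TOM1L1. RAMP2 was most like NOS3 (0.986), TOM1L1 and FAM49A, and CALCRL like TDRP (0.979), SPNS2 and CLEC2B. ADM was most like SERPINB7 (0.985), P3H2 and CALHM6, and ECE1 like SPG21 (0.985), APOA1 and SPINT2. For the prostanoid enzymes, PTGIS was most like CGNL1 (0.983), BAZ2B and TCF4, PTGS2 like SKIL (0.980), TMBIM4 and NID2, and PTGS1 like CDYL2 (0.971), RIT1 and COL12A1. ACE was too low to be included.

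The RefSeq promoters (Sscrofa11.1) of all 10 members were found, as the 250 bases before the annotated gene start. The letters searched on both strands were ACGTG (a core of hypoxia response elements, which CACGTG holds once on each strand), TATAAA (the TATA box), CACCC (bound by KLF factors), GGAA (the core of ETS sites), TGACTCA (an AP-1 site) and GATAA (bound by GATA factors). Of these, ACGTG was in 4 of 10 members and 18.7% of 19556 promoters, TATAAA in 3 (ACE, ADM and EDN1) and 9.77%, CACCC in 7 and 53.9%, GGAA in 10 and 92.7%, GATAA in 2 and 19.1%, and TGACTCA in none and 2.90%. The promoters of ADM, PTGS2 and NOS3 were chosen after the values were seen, ADM and PTGS2 as the members furthest apart between the cultures and NOS3 as one that stayed level over the cell states. They are printed 5′ to 3′ on the gene's strand with matches in capitals. The EDN1 match lies 248 to 243 bases before the annotated start, which may not be where transcription begins. A match is letters only, and no match says only that these letters were not in the window. They lie at chr2:49231522-49231771 (ADM, minus strand), chr9:127858867-127859116 (PTGS2, minus strand) and chr18:6228913-6229162 (NOS3, minus strand).
ADM: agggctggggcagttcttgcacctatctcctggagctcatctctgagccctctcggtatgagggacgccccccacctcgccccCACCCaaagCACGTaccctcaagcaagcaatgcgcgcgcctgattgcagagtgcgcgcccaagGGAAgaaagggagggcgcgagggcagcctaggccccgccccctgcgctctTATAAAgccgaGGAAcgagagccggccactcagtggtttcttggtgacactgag
PTGS2: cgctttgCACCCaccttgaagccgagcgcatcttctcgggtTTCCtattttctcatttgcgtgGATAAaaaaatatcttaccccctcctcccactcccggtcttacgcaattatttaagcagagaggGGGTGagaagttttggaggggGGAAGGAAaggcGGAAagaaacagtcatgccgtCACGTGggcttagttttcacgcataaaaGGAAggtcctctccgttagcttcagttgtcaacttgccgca
NOS3: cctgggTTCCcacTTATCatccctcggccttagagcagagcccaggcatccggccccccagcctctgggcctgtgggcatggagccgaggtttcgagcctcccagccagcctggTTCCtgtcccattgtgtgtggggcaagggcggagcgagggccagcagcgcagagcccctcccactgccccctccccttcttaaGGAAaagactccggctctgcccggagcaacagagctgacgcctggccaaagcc
The ADM window held an ACGTG match and a TATAAA match 54 to 49 bases before the start. The PTGS2 window held CACGTG and a GATAA match, and no TATAAA. The NOS3 window held a GATAA match and GGAA matches, and neither ACGTG nor TATAAA.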

How the data were processed

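The 10 genes, the gene lists and the classes were chosen with earlier results of these data known. Counts deposited by the authors, made with Cell Ranger 3.0.2 against Sscrofa11.1 according to the submitters' processing notes, were used as they are. Of 22804 features 7821 had only an identifier, and 1051 of these were named from an annotation table. All 10 members matched by symbol. The genes named are the members and the listed genes of their pathways that were 2-fold apart or are partners of a member, plus for each member the genes most like it. Cell type markers are named from fixed lists, and HIF1A, KLF2 and GUCY1B1 were chosen after their values were seen. Mitochondrial shares were taken over 12 genes. No doublet caller was run. Cells with UMIs of both classes were handled by an alternative that allows no UMI of the other class. UMIs were not corrected for free RNA. The folds and their intervals were tried on simulated Poisson counts at lung class totals, which is the model the intervals assume. Likeness was tried on a planted copy of a profile. The other steps were not tested on simulated data. Python 3.11.15, numpy 2.4.6, pandas 2.3.3, scipy 1.17.1 and matplotlib 3.10.9 were used.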

Additional observations from a re-analysis of the deposited data

Results flagged for a closer look

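PTGS2 lay on different sides of 1 in the endothelial over collagen-high comparison: 0.838-fold in the lung, 1.63-fold in the aorta and 2.31-fold in aorta cells with 5000 or more genes. The aorta value became 2.94-fold with no minimum collagen share. The difference between the tissues was not tested.

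Cells of neither class, 55 in the lung and 100 in the aorta, entered no comparison, yet members were measured in them above the floor of 3 counts. In the lung these levels were 46.2 CPM for ADM, 295 CPM for EDN1, 23.1 CPM for NOS3, 40.4 CPM for PTGS2, 179 CPM for PTGIS, 34.7 CPM for CALCRL and 168 CPM for RAMP2. The RAMP2 level lay above the 97.1 CPM of lung endothelial cells. In the aorta they were 49.8 CPM for EDN1, 10.5 CPM for CALCRL and 39.3 CPM for RAMP2. The median mitochondrial share was 0.112% in these aorta cells, with 81 of 100 under 1%, against 6.37% in aorta endothelial cells, with 27 of 123 under 1%. Macrophage markers summed to 2247 CPM in the lung cells (8 of 8 with a UMI, led by CD68 at 607 CPM) and smooth muscle markers to 3917 CPM in the aorta cells (5 of 6, led by TAGLN, DES at 0). Endothelial markers summed to 1086 CPM in the lung cells, with VWF and KDR at 0, and to 275 CPM in the aorta cells. Their part in the members' levels was not tested.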

How the results depend on the processing

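Gene limits, low mitochondrial shares, barcodes, class rules, normalisation, minimum level and fold were changed. Using all barcodes drops both cell limits together, the strict class rule asks for no PTPRC and 3 PECAM1 UMIs, and the lower minimum changes level and UMIs together. The count of members higher in lung endothelial than collagen-high cells was 8 under all alternatives. In the aorta it was 5 to 9 against 7: it was 9 with no minimum collagen share (ECE1 and PTGS2 gained, PTGS2 at 2.94-fold), it was 5 with no UMI of the other class allowed (ADM lost at 1.43-fold, and PTGS1, at 2.86-fold, for not meeting the minimum level or UMIs), and with no upper gene limit it was 8 (ECE1 and PTGS2 gained, ADM lost). Between lung and aorta endothelial cells the count was 3, and it was 6 at a 1.5-fold line (NOS3, PTGIS and CALCRL gained), where 33.1% of all features were called, and 2 at a 3-fold line (ECE1 lost). At 2-fold it was also 2 with no upper gene limit, with aorta cells of 5000 or more genes and with all barcodes, where ECE1 was 1.51-fold, 1.5-fold and 1.52-fold. With the top and bottom 10% of cells in place of 25%, 10 state pairs were apart in the lung in place of 4, and 19 in deep aorta cells in place of 12, of which 4 and 11 were shared. A lower line counts more genes by its construction, and for the state pairs the cause was not tested. Of 234 fold values for single members under the alternatives, 195 lay within the main interval and 39 did not, and no called value changed its direction. Some of the 195 could not have left it. Between the aorta classes the intervals of NOS3, ECE1 and CALCRL have no upper limit. Dropping the minimum collagen share leaves the endothelial classes, and so the lung over aorta endothelial folds, unchanged. Of 27 folds 25 stayed on 1 side of 1, the exceptions being ECE1 between the aorta classes (a bound) and PTGS1 between lung and aorta. With no UMI of the other class allowed, lung folds rose for ADM (7.26), EDN1 (18.5), NOS3 (26.2), ECE1 (17.3), PTGS1 (11), PTGIS (12.4), CALCRL (184) and RAMP2 (10.2). The aorta EDN1 fold was 5.17 as a mean of single-cell CPM and 31.5 with no upper gene limit. Other aorta folds also varied widely: NOS3 (4.7 to 72.4), PTGS1 (2.86 to 13.5), PTGIS (2.95 to 9.35), CALCRL (8.05 to 54) and RAMP2 (7.44 to 20.1). ADM ran from 1.25 to 5.73 and ECE1 from 0.954 to 26.5. In the main setting the NOS3, ECE1 and CALCRL folds are bounds at the floor, so their ranges are not all measured folds. Depth limits the aorta under 5000 genes most: 23 collagen-high cells with 203893 UMIs. With 1 library per tissue nothing here covers variation between animals.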
